A study of Mus musculus with 2 samples.

Results

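Cycling astrocytes of the newborn mouse spinal cord were described here from single-cell RNA sequencing of whole cords taken at postnatal day 4. Of the 52340 barcodes in both libraries, 673 were selected, 274 in the SMA library and 399 in the Con library. A barcode was taken where it had 200 to 4000 genes, under 10% of its UMIs from mitochondrially encoded genes, and a UMI in 3 or more of 9 astrocyte markers (Aqp4, Agt, Slc6a11, Gjb6, Cldn10, Slc39a12, Ntsr2, Acsbg1 and Fgfr3). It further had a UMI in at most 1 of Pdgfra, Cx3cr1, P2ry12, Cldn5 and Ccdc153, which mark other cell types, and 3 or more summed UMIs of 10 cycle genes (Top2a, Mki67, Cdk1, Birc5, Ccnb1, Cenpf, Ube2c, Hmmr, Tpx2 and Nusap1). A UMI, or unique molecular identifier, tags 1 captured RNA molecule. The cells were thus chosen by the levels of these 24 genes, so those levels are a description of the choice and not a result.

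The SMA mice carried no intact mouse Smn gene and the human SMN2 transgene (mSmn-/-, hSMN22tg/0), and the Con mice had the same transgene with 1 intact Smn allele (mSmn+/-, hSMN22tg/0), so both groups had human SMN2. The strain was FVB, and per the study's methods these are mice of the severe Taiwanese model of spinal muscular atrophy, with littermates pooled into 1 library per genotype. The libraries are called SMA and Con by their labels. With 1 library per group there was no spread between animals, no test between genotypes was possible, and all intervals below are 95% intervals that cover counting error only.

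Astrocytes of the newborn spinal cord arise from radial glia and then multiply locally, so that a part of the differentiating astrocytes is still in the cell cycle around birth. A dividing cell first licenses its replication origins and copies its DNA in S phase, under E2F transcription factors. It then builds the spindle and divides in mitosis, under genes that FOXM1 helps to switch on late in the cycle. Mature astrocytes are known for clearing glutamate and potassium, for water transport through aquaporin 4 and for secreting lipoproteins and synapse-shaping proteins. SMN, the protein lost in spinal muscular atrophy, loads Sm proteins onto spliceosomal RNAs.

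The promoters of the late and early cycle genes show the sequence elements by which these groups are known, and a few are printed for genes that recur below. Each is the 160 bases before the annotated start, from RefSeq on GRCm38.p6, written 5′ to 3′ on the gene's own strand. Capitals mark a CHR element of cell cycle promoters, which was searched as TTTGAA and also as TTTAAA. They also mark a CCAAT box, searched by the letters of its name, and an E2F site (TTTCCCGC, TTTGGCGC, TTTCGCGC or TTTGCCGC). Each was searched as its reverse complement too. Overlapping matches were counted separately, which applies to Mcm5 and Mcm6. The first 4 genes were used to choose the cells, and the last 4 were not.
Ccnb1 (chr13:100786487-100786646, minus strand): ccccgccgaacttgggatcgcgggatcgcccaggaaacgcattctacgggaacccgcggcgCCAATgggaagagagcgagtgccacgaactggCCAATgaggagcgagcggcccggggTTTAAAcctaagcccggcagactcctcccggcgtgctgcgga
Cdk1 (chr10:69352913-69353072, minus strand): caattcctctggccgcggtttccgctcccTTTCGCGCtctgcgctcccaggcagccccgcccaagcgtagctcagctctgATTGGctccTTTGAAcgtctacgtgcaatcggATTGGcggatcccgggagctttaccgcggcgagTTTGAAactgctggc
Ube2c (chr2:164769769-164769928, plus strand): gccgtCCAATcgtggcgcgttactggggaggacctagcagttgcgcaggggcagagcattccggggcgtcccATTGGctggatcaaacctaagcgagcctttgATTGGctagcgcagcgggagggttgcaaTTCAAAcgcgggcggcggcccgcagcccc
Top2a (chr11:99024190-99024349, minus strand): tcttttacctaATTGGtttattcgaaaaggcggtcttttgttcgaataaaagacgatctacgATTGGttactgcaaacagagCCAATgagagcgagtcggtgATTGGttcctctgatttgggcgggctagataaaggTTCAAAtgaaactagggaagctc
Mcm5 (chr8:75109349-75109508, plus strand): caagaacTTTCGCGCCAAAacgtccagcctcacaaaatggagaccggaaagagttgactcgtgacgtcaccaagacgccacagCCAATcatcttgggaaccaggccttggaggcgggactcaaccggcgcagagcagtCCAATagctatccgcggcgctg
Mcm6 (chr1:128359706-128359865, minus strand): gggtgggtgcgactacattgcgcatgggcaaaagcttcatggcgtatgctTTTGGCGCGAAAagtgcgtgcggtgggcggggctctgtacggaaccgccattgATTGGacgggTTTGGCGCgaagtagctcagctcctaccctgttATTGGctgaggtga
Cdc6 (chr11:98907991-98908150, plus strand): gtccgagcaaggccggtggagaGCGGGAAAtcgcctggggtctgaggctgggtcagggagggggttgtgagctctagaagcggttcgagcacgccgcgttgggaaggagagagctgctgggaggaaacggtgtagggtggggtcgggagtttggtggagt
Hells (chr19:38930830-38930989, plus strand): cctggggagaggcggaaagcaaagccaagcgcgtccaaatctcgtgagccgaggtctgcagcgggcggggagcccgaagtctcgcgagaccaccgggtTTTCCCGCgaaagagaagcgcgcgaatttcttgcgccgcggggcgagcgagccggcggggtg

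Over whole windows of 250 bases before to 50 bases after the start, a CHR element stood in 66.1% of the 62 promoters of 55 matched mitosis genes, in 26.8% of the 56 promoters of 47 matched S phase genes and in 27.6% of all 32851 promoters. An E2F site stood in 32.1% of the S phase promoters, in 6.45% of the mitosis promoters and in 2.26% of all promoters. The CCAAT box stood in 74.2% of the mitosis promoters, 53.6% of the S phase promoters and 37.4% of all promoters. Of the 9 cycle genes of the choice with a promoter in the table, 8 had a CHR element and 1 had an E2F site. The CHR element was thus commoner in the late list and the E2F site in the early list. A match describes the sequence alone and is not a measured site of binding.

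Both libraries were deep for the selected cells. The median cell had 7491.5 UMIs and 2765.5 genes in the SMA library and 8204 UMIs and 2833 genes in the Con library, with ranges of 1368 to 20991 and 1233 to 21706 UMIs. Summed over cells they held 2142057 and 3417507 UMIs, and levels below are CPM, in which all UMIs of a class in a library add up to the same sum. The SMA list shared 8163 barcodes with the Con list, which were left out of the SMA library, and 359 of the 399 Con cells had a barcode that was also in the SMA list, so results are also given with the shared SMA barcodes kept. Smn1 (chr13:100124852-100137690, plus strand), the targeted gene, was at 49.95 CPM in the SMA cells and 46.2 in the Con cells (107 and 158 UMIs, log2 ratio 0.11, -0.26 to 0.47). Where the sequenced 3′ tags lie relative to the altered stretch of the gene is not given in the sources used here, so Smn1 did not separate the libraries and checks neither label. Xist, expressed from the inactive X chromosome of females, was at 4.20 CPM in the SMA cells and 528 CPM in the Con cells, and 4 Y-linked genes summed to 123 and 64.1 CPM, so sex composition differed with genotype and the contributions of sex and genotype cannot be told apart.

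The label was checked against genes of other cell types, and the cells with few astrocyte markers also carried RNA of oligodendrocyte precursor cells (OPCs). The split by marker number uses genes of the choice, so these values are a description, but the genes read here played no part in it. Cells with 5 to 9 of the 9 markers (177 SMA and 257 Con) had a median of 94 and 88 UMIs in 23 astrocyte transport and enzyme genes, and of 3 and 3 UMIs in 7 OPC markers. Cells with 3 or 4 markers (97 SMA and 142 Con) had 18 and 16 UMIs in the transport and enzyme genes, and 15 and 11.5 UMIs in the OPC markers. Of these, 69 and 83 carried 3 or more different OPC markers, against 42 and 68 of those with 5 to 9 markers. At exactly 3 markers the OPC median was 17 and 14.5 UMIs, at 4 markers 11 and 5.5, and at 5 markers 2 and 3. By a like rule for cycling OPCs (3 or more of 9 OPC genes), 80 of the 274 SMA and 109 of the 399 Con cells would also be taken as cycling OPCs, among them 65 of the 97 and 77 of the 142 cells with 3 or 4 astrocyte markers. The selected cells were thus not all set apart from OPCs by the choice.

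**Figure D1:**
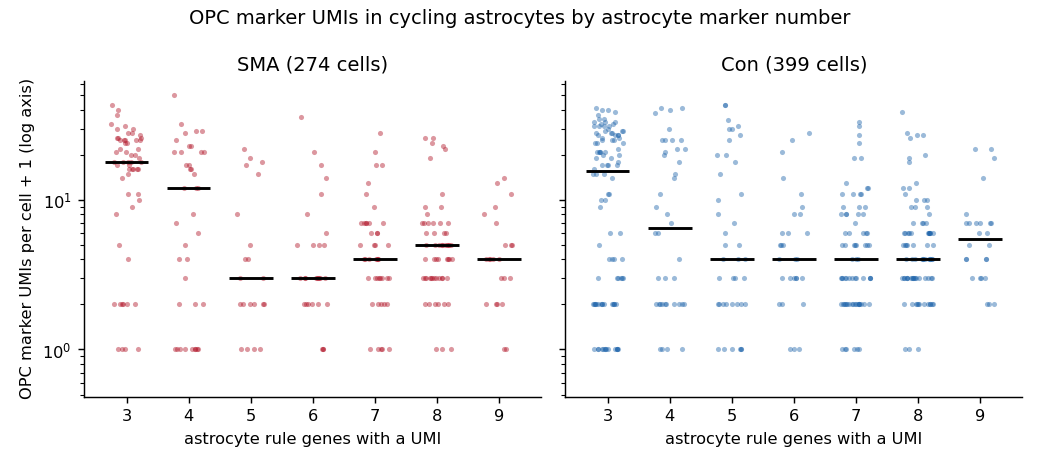
Summed UMIs per cell of 7 OPC markers that were not used in the choice, plus 1 on a log axis (vertical), against the number of the 9 astrocyte markers with a UMI (horizontal axis, points spread sideways), for each of the 274 SMA and 399 Con cells, with a bar at the median for each number. The median falls from 17 and 14.5 UMIs at 3 markers to 2 and 3 UMIs at 5 markers, which is drawn 1 higher.

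Haemoglobin RNA of red blood cells was the other sign of mixed contents, and it differed between libraries. It made up 2% or more of the UMIs of 13 SMA and 76 Con cells, and 4.59% and 16.1% of all UMIs of the selected cells. In non-cycling astrocytes it made up 1.91% and 5.64% of all UMIs. In 10 SMA and 58 Con selected cells it made up 30% or more, with highest shares of 94.1% and 93.1%. Since CPM is a share of all UMIs, haemoglobin lowers the CPM of every other gene, most in the Con selected cells. Markers of other types, as summed CPM in SMA and Con cells, and without the genes that the choice limited, were 310 and 656 for 6 oligodendrocyte genes, 316 and 222 for 6 microglial genes, 56.02 and 55.3 for 3 endothelial genes, 172 and 440 for 5 fibroblast genes and 141 and 38.9 for 4 genes of ciliated ependymal cells. A stricter group was therefore compared as well, with 5 or more astrocyte markers and haemoglobin under 2% (170 SMA and 227 Con cells, called strict cells below). In it the 7 OPC markers summed to 646 and 798 CPM against 1079 and 1038 CPM in all selected cells, and oligodendrocyte markers to 154 and 712 CPM. The part of these other cells in each result was not tested beyond that restriction.

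The genes of the choice themselves were at uneven levels. Among the astrocyte markers, Aqp4, the aquaporin of the astrocyte end foot, was at 1029 CPM in the SMA and 1242 CPM in the Con cells and had a UMI in 79.6% and 85.5% of them. Cldn10, a claudin, was at 652 and 502 CPM (89.1% and 82.7% of cells), and Fgfr3, a receptor for fibroblast growth factors, was at 169.5 and 151 CPM (64.6% and 60.4%). Gjb6, the gap junction protein connexin 30, was the marker found least often, in 31.8% and 27.1% of cells. Of the cycle genes, Ube2c, the ubiquitin carrier of the anaphase-promoting complex, was found most often (76.3% and 75.9% of cells, 620 and 592 CPM) and Hmmr, a spindle protein, least often (33.2% and 36.8%, 87.3 and 100.1 CPM). Top2a, the topoisomerase that untangles sister chromatids, was at 219 and 243 CPM (50% and 54.6% of cells), Mki67, the Ki-67 antigen, at 108 and 125 CPM (42.7% and 44.6%), and Cenpf, a kinetochore protein, at 295 and 264 CPM (60.6% and 53.6%).

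Among the astrocytes so defined, 274 of 1828 SMA cells (14.99%, exact interval 13.4 to 16.7) and 399 of 2358 Con cells (16.9%, 15.4 to 18.5) counted as cycling. The log2 ratio of the shares, SMA over Con, was -0.17 (-0.38 to 0.03), so a difference was not detectable with these filters. In strict cells the shares were 12.5% and 14.2% (-0.19, -0.45 to 0.08). After every cell was thinned to 2000 UMIs, which left out 194 SMA and 2279 Con cells of all types, the shares were 7.29% and 7.27%, and at 1000 UMIs 4.19% and 3.37% (log2 ratio 0.31, -0.25 to 0.88). Keeping the SMA barcodes that are also listed in Con gave 12.1% for SMA and a log2 ratio of -0.48 (-0.67 to -0.29). With no upper limit on genes the shares were 16.1% and 18.8%. In both of these settings the interval of the ratio lay below 0, so the reading depends on the filters.

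Cells of other classes also met the limit on cycle UMIs. Mature oligodendrocytes are known to have left the cycle, while ependymal cells can still divide in the newborn cord, so the latter are not a background free of division. Of the ependymal cells, 132 SMA and 65 Con cells also met the astrocyte rule, as did 15 and 27 of the oligodendrocytes. With the same 3 or more cycle UMIs 10.5% of 588 SMA and 9.86% of 284 Con ependymal cells would count as cycling, as would 9.33% of 193 and 4.91% of 428 oligodendrocytes. Median depths were 6063 and 6240.5 UMIs in the astrocytes, 5995 and 6341.5 in the ependymal cells and 9828 and 9134 in the oligodendrocytes. The strict astrocyte shares of 12.5% (10.8 to 14.4) in SMA and 14.2% (12.5 to 16.03) in Con had intervals that overlapped those of the ependymal cells (8.18 to 13.3 and 6.65 to 13.9), whereas those of all astrocytes lay above them in both libraries. The SMA oligodendrocytes, at few cells, had an interval of 5.62 to 14.3 that overlapped those of both the strict and all SMA astrocytes. At 2000 UMIs per cell the astrocyte shares were 7.29% (5.99 to 8.77) and 7.27% (6.09 to 8.60). Ependymal cells then had 3.45% (1.98 to 5.54) in SMA and 3.67% (1.597 to 7.10) in Con, and oligodendrocytes 2.67% (0.731 to 6.69) and 2.60% (0.959 to 5.57), so the intervals of Con ependymal cells and of SMA oligodendrocytes overlapped those of the astrocytes. At 4000 UMIs per cell astrocytes had 10.9% (9.28 to 12.7) and 12.1% (10.5 to 13.7), ependymal cells 7.12% (5.06 to 9.67) and 6% (3.40 to 9.70), and oligodendrocytes 6.33% (3.08 to 11.3) and 4.68% (2.58 to 7.73). There the SMA intervals of both other classes overlapped that of the astrocytes, and the Con ones did not.

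**Figure D2:**
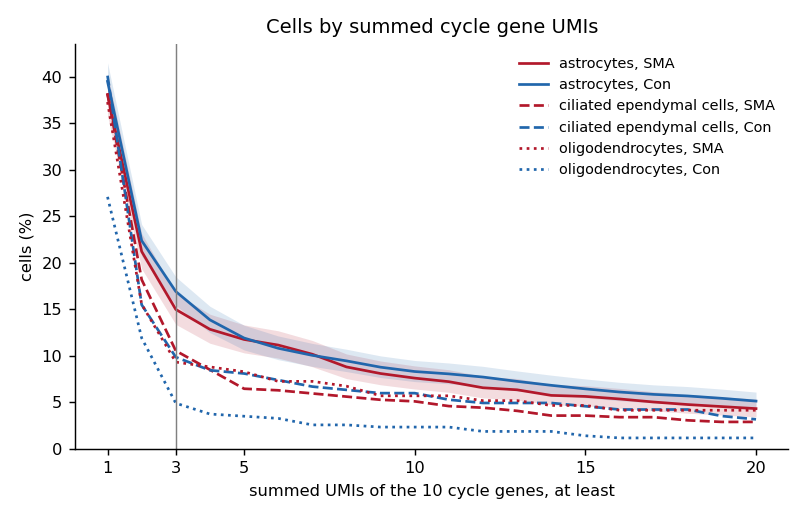
Share of cells (vertical axis, percent) with at least a given number of summed UMIs of the 10 cycle genes (horizontal axis) in astrocytes (solid lines), ciliated ependymal cells (dashed) and oligodendrocytes (dotted) of the SMA (red) and Con (blue) library, with shaded 95% counting intervals for the astrocytes and a vertical line at the limit of 3 UMIs. At 10 or more UMIs the shares were 7.60% and 8.31% in SMA and Con astrocytes, 5.10% and 5.99% in ependymal cells and 5.70% and 2.34% in oligodendrocytes.

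The number of cycle UMIs per selected cell was spread widely. The median was 10 UMIs in SMA and 9 in Con cells, the middle of the range ran from 5 to 22 and from 4 to 24.5, and the highest cells had 173 and 172. Just inside the limit stood 39 SMA and 72 Con cells with exactly 3 UMIs, and just outside it 114 and 129 cells with 2. Cells at 3 UMIs had 59 S phase genes at a sum of 2310 and 2004 CPM and 63 mitosis genes at 1246 and 1232 CPM. Cells at 2 UMIs had 1906 and 1519 CPM and 996 and 921 CPM, and cells at 6 or more had 4505 and 3864 CPM and 6392 and 6861 CPM. The limit therefore fell on a slope, and the cells near it had far lower mitosis RNA than those well inside.

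S phase genes outside the choice were higher in the cycling than in the non-cycling astrocytes (1554 SMA and 1959 Con cells) without exception. Since the cells were chosen on cycle genes this is a description of what the choice brought with it, given with no test. Of 59 S phase genes, 48 had 100 or more UMIs over the cells compared in each library. All 48 were higher in both libraries and 39 were 2-fold or more higher in both, and with no limit on UMIs all 59 were higher in both, while of all 9145 genes measured in both libraries 2184 were higher and 4474 lower in both. Over all genes with 100 or more UMIs, 316 of 9233 were 2-fold or more higher in SMA (3.42%) and 214 lower (2.32%), and 323 of 10027 were higher in Con (3.22%) and 276 lower (2.75%). In strict cells the percentages were 3.07% higher and 1.72% lower in SMA, and 3.26% higher and 0.924% lower in Con. The median gene stood at a log2 ratio of -0.05 in SMA and -0.17 in Con, and at -0.02 and 0.01 in strict cells.

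Rrm2, the subunit of ribonucleotide reductase made for DNA synthesis, was at 273 and 226 CPM in cycling SMA and Con cells against 13.6 and 14.6 CPM in the others, log2 ratios of 4.33 and 3.96. Pcna, the sliding clamp of the replication fork, was at 299 and 230 CPM against 79.1 and 64.4 CPM (1.92 and 1.84). It was thus also well expressed in the cells with under 3 cycle UMIs, unlike Rrm2. Those cells need not all be outside the cycle. Among them, the S phase genes summed to 994 and 958 CPM at 0 cycle UMIs and to 1906 and 1519 CPM at 2. Of the replication genes whose promoters are printed above, the helicase subunits Mcm5 and Mcm6 were at 51.4 and 48.3 CPM and at 76.6 and 65.0 CPM in cycling cells (log2 ratios 2.87 and 2.19, and 2.39 and 2.07). Cdc6, the licensing factor that loads that helicase, was at 16.3 and 10.5 CPM (2.87, 2.06 to 3.71, and 3.17, 2.27 to 4.15, on fewer than 100 UMIs in each library), and Hells, a chromatin remodeller, at 37.8 and 37.2 CPM (2.13 and 2.31). As sums, the licensing, fork and nucleotide genes together had log2 ratios of 1.82 in SMA and 1.66 in Con (strict 1.90 and 1.75). In strict cells Rrm2 stood at 4.51 and 4.15 and Pcna at 2.14 and 2.08.

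Mitosis genes differed by more. This too describes the choice, since 8 of its 9 cycle genes with a promoter had the CHR element, commoner in the late list. Of 63, 42 had 100 or more UMIs in both libraries and 38 of these were 2-fold or more higher in both, but many reached that limit through the cycling cells alone (24 had under 50 UMIs in 1 of the SMA classes), so the count favours higher genes. With no limit on UMIs all 63 were higher in each library, with summed log2 ratios of 2.90 and 2.84 (strict 3.00 and 3.03). Cenpa, the histone that marks the centromere, was at 357 and 319 CPM in cycling cells against 7.31 and 8.80 CPM (5.61 and 5.18, strict 5.85 and 5.71). Cdc20, the activator of the anaphase-promoting complex, was at 123 and 150.1 CPM against 3.35 and 4.99 CPM (5.20 and 4.91, strict 5.47 and 5.24). Plk1, the mitotic kinase, stood at 5.74 and 5.42, Kif11, the kinesin that separates the spindle poles, at 5.20 and 4.97, and Aspm, a spindle pole protein, at 5.41 and 5.81 on the log2 scale. These ratios were of the size seen for the genes of the choice, such as Ccnb1, cyclin B1, at 6.40 and 6.27, and Cdk1, its kinase, at 4.85 and 4.81. Cyclin A2 (Ccna2), which acts from S phase on, was at 165 and 145 CPM against 3.04 and 2.80 CPM (5.76 and 5.70).

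Chromatin proteins outside the cycle machinery proper were abundant in these cells. H2afz, a histone variant made throughout the cycle, was at 2989 and 2429 CPM in cycling against 656 and 565 CPM in non-cycling cells (2.19 and 2.10), and Hmgb2, a chromatin bending protein, at 1312 and 1036 against 180 and 169 CPM (2.87 and 2.62). All 15 chromosome structure genes measured in both libraries were higher in both. Stmn1, which destabilises microtubules, was at 617 and 423 against 80.0 and 69.6 CPM (2.95 and 2.61). Among regulators, Foxm1, the factor that drives late cycle genes, was at 25.2 and 19.6 CPM in cycling cells and at 0.406 and 1.56 CPM in the others (4 and 20 UMIs there), with log2 ratios of 5.96 and 3.65 (strict 5.61 and 4.32), on fewer than 100 UMIs in each library. E2f1 was at 15.4 and 11.4 against 3.86 and 5.45 CPM (1.998 and 1.07, the SMA value on fewer than 100 UMIs). Cdkn2c (chr4:109660876-109667189, minus strand), an inhibitor of the cyclin D kinases, was higher in cycling cells too, at 89.2 and 86.0 against 5.68 and 7.01 CPM (3.97 and 3.62).

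Outside the lists, the genes highest in cycling over non-cycling cells by the smaller of both libraries' ratios included Esco2 (6.27 and 5.53), which acetylates cohesin in S phase, Pimreg (5.30 and 5.59), Mxd3 (4.93 and 4.94), Ska1 (5.89 and 4.89) of the kinetochore, Shcbp1 (4.79 and 4.97), Cdca3 (4.77 and 4.52) and Pclaf (4.40 and 4.47), a partner of Pcna. The lowest were led by genes of neutrophils. S100a9 had 1 and 2 UMIs in cycling against 708 and 618 in non-cycling cells (0.467 and 0.585 against 71.8 and 48.1 CPM), and S100a8 1 and 2 against 467 and 401. Cstdc5 had 0 and 1 against 380 and 306 UMIs, Camp 0 and 2 against 261 and 115, and Cstdc4 0 and 0 against 103 and 118. Neutrophil RNA thus sat in the non-cycling cells. Strict SMA cells held 1 UMI of each of S100a9 and S100a8 in cycling and 4 and 1 in non-cycling cells, with ratios of 0.52 (-5.10 to 3.86) and 2.52 (-3.77 to 8.82), so no direction could be read there. Strict Con cells held 1 and 1 UMI in cycling against 610 and 393 in non-cycling cells, so that in Con the restriction left this RNA in place. Mal (-3.05 and -2.27), a myelin protein, Ttc12 (-2.06 and -1.69) and 1700016K19Rik (-1.44 and -2.05) completed the list.

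**Figure D3:**
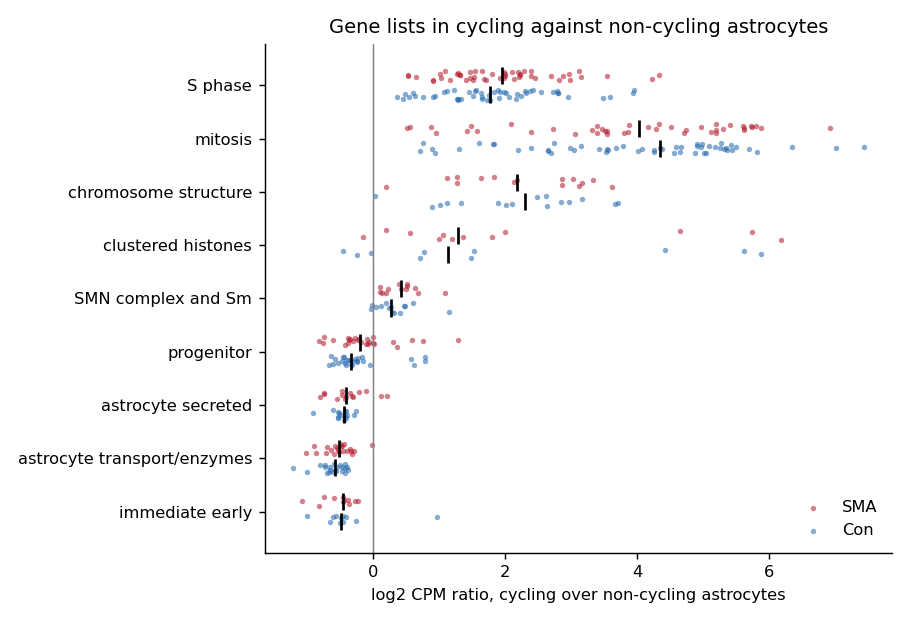
Log2 ratio of CPM, cycling over non-cycling astrocytes (horizontal axis), with 1 point for each gene of a list (rows) that had 100 or more UMIs in the SMA (red) or Con (blue) library and a black bar at the median gene of the list. The median S phase gene stands at 1.95 in SMA and 1.77 in Con, the median mitosis gene at 4.02 and 4.35, and the median astrocyte transport and enzyme gene at -0.51 and -0.58.

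Genes of mature astrocyte function were lower in the cycling cells. All 22 transport and enzyme genes measured were lower in both libraries, with summed log2 ratios of -0.62 and -0.69. The strict cells, of which 39 of 170 SMA and 61 of 227 Con cells still carried 3 or more OPC markers, had smaller differences (-0.41 and -0.46). Aldoc, the astrocytic aldolase of glycolysis, was at 1475 and 975 CPM in cycling against 2985 and 2244 CPM in non-cycling cells (-1.02 and -1.20), the only gene of the list that was 2-fold or more lower in both libraries, and had strict ratios of -0.85 and -1.03. Slc7a10, a serine transporter, was at 382 and 394 against 708 and 786 CPM (-0.89 and -0.997). Glul, glutamine synthetase, and Slc1a2, the main glutamate transporter, differed by less (-0.45 and -0.60, and -0.51 and -0.53). Gfap, the intermediate filament of astrocytes, was at 579 and 586 against 939 and 1092 CPM (-0.70 and -0.90, strict -0.40 and -0.59).

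Progenitor genes were split. Of 26, 19 were lower and 4 higher in both libraries, and in strict cells 10 of 24 were lower in both, against 4474 of 9145 and 2848 of 7899 of all genes. Hes5, a Notch target that holds progenitors undifferentiated, was among those lower, at 348 and 363 CPM in cycling against 526 and 565 CPM in non-cycling cells (-0.60 and -0.64, strict -0.41 and -0.47). The 4 that were higher included Sox11 and Hmga2. Sox11, a factor of immature cells, was at 133 and 139 CPM in cycling against 87.9 and 90.5 CPM in non-cycling cells (0.60 and 0.62, strict 0.43 and 0.52), and Hmga2, a chromatin protein of fetal progenitors, at 18.7 and 14.9 against 7.61 and 8.65 CPM (1.30 and 0.79, strict 1.55 and 0.77). The 7 OPC markers were also higher in the cycling cells, with sums of 0.39 and 0.16, or 0.15 and 0.09 in strict cells. Btg2, an antiproliferative gene of early differentiation, was at 392 and 361 against 754 and 733 CPM (-0.94 and -1.02), and 11 and 10 of 11 immediate early and stress genes measured, which cell dissociation is known to induce, were lower as well (sums -0.47 and -0.50).

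Within the cycle, the selected cells were divided by whether S phase or mitosis genes had more summed UMIs. S phase genes had more in 111 of 274 SMA cells (40.5%, 34.6 to 46.6) and in 145 of 399 Con cells (36.3%, 31.6 to 41.3), intervals that overlapped. The strict shares were 40.6% and 33.0%. In cycling OPCs and cycling microglia, taken by like rules and here as below without the cells that are also among the selected astrocytes, they were 37.3% and 46.2% and 33.6% and 35.3%. The median cell had 20 and 18 S phase UMIs and 27 and 24 mitosis UMIs, with highest values of 110 and 159 and of 206 and 271. A cell with few UMIs of either list can fall on either side of this division. The 10 cycle genes of the choice were themselves lower in the cells with more S phase UMIs. Their log2 ratios against the cells with more mitosis UMIs were -1.29 and -1.59. The choice thus favoured cells late in the cycle, and the shares partly describe it.

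Several genes in neither list differed between these groups, for which strict ratios were not computed. Ccne1, cyclin E1, which starts S phase, was at 83.0 and 92.0 CPM in S phase cells against 19.04 and 16.02 CPM in mitosis cells. Its ratios were 2.12 (1.43 to 2.87, on fewer than 100 UMIs) in SMA and 2.52 in Con. Ccne2 was at 52.3 and 42.4 against 7.45 and 3.40 CPM (2.81, 1.76 to 4.03, and 3.64, 2.499 to 5.02, on fewer than 100 UMIs in each library). Ccnb2, cyclin B2, was at 42.0 and 32.8 against 240.1 and 217 CPM (-2.51 and -2.72), while Ccna2 differed by less (-0.71 and -1.38). Of the other cyclins, Ccnd3 stood at 0.36 (-0.03 to 0.74) and 0.47 (0.14 to 0.79), Ccnd1 at -0.01 and 0.57, Ccnd2 at -0.21 and 0.46 and Ccnf, again on fewer than 100 UMIs, at 0.04 and -0.93. The clustered histone genes as a sum were lower in S phase than in mitosis cells, at -0.42 (-0.51 to -0.33) and -0.18 (-0.30 to -0.06). Against that sum, Hist1h1b was higher in S phase cells at 209 and 121 against 136 and 93.2 CPM (0.62 and 0.37), as was Hist1h2ap at 239 and 154 against 145 and 85.0 CPM (0.72 and 0.86). Hist1h2bc and Hist1h1c were higher in mitosis cells instead, with ratios of -0.98 and -1.19 and of -0.98 and -1.97. Astrocyte transport and enzyme genes as a sum differed little between S phase and mitosis cells (0.03, -0.01 to 0.08, and -0.11, -0.15 to -0.07). Single genes went both ways, with Slc7a10 at 0.80 and 0.40 and Aldh1l1 at -0.63 and -0.41.

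**Figure D4:**
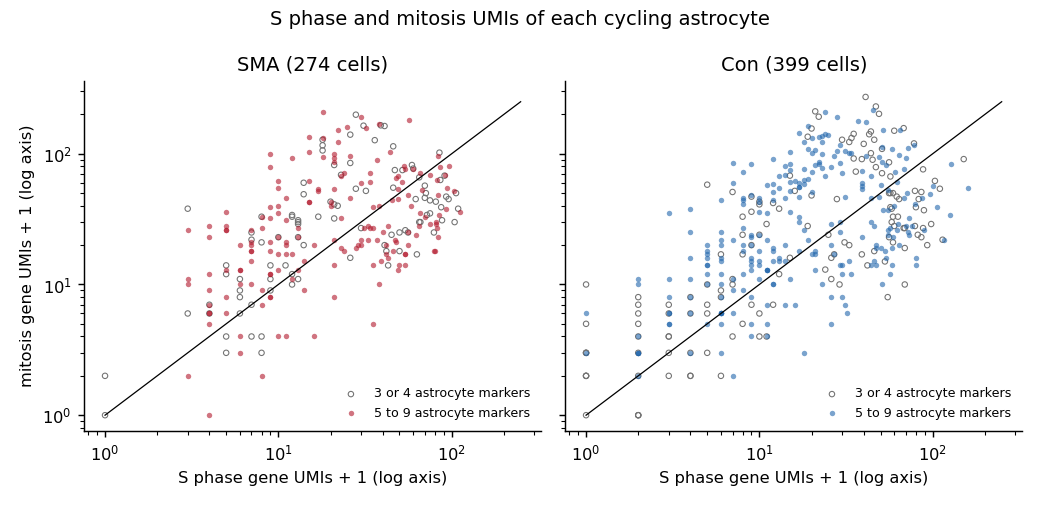
Summed UMIs of 63 mitosis genes (vertical) against summed UMIs of 59 S phase genes (horizontal), each plus 1 on a log axis, for each selected cell of the SMA and the Con library, with open points for cells with 3 or 4 astrocyte markers, filled points for those with 5 to 9, and the line of equal UMIs. Below the line lie 111 of 274 SMA and 145 of 399 Con cells.

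Between genotypes the cycle genes of these cells were close. The median gene of the selected cells stood at a log2 ratio, SMA over Con, of 0.14, and at -0.05 in strict cells. Genes were counted as higher or lower against a ratio of 0 and, where this is given, against the median gene too. S phase genes summed to 3977 CPM in SMA and 3305 CPM in Con (0.27, 0.23 to 0.31), with 38 of 49 measured genes higher and 32 above the median gene. Only 22 genes were higher, of a number measured that is not given here, when cells with haemoglobin of 2% or more were left out. In strict cells the sum stood at 0.17 (0.11 to 0.22) with 29 of 40 higher. Mitosis genes summed to 5206 and 4963 CPM (0.07, 0.03 to 0.10), with 35 of 59 higher but only 22 above the median gene. Without the haemoglobin-rich cells 14 were higher, again of a number not given here. In strict cells the sum of the mitosis genes stood at -0.08 (-0.12 to -0.03). No gene of either list was 2-fold or more apart. Over all 6252 genes with 100 or more UMIs, 45 were 2-fold or more higher (0.720%) and 38 lower (0.608%), and in strict cells 13 of 4579 were higher (0.284%) and 44 lower (0.961%).

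The clustered histone genes stood apart from this. They are the multicopy histones made for new chromatin, mostly without a poly(A) tail, whereas a 3′ library captures poly(A) RNA. Of 57 with any UMI, 54 were higher in the SMA cells. Of the 11 with 100 or more UMIs over both libraries, 11 were higher and 5 were 2-fold or more higher, but 2 of the 11 had under 50 UMIs in 1 library, so that this limit favours genes high in either. The list had a sum of 2076 against 711 CPM (1.55, 1.47 to 1.62). In strict cells 45 of 54 were higher, at 2061 against 730.3 CPM (1.497, 1.40 to 1.59). Hist1h2bc (chr13:23684199-23692908, plus strand), an H2B gene, was at 729 CPM in SMA and 130 CPM in Con (1561 and 443 UMIs, 2.49, 2.34 to 2.65, strict 2.25). Hist1h1c (chr13:23738808-23740367, plus strand), a linker histone, was at 293 and 60.9 CPM (2.27, 2.04 to 2.499, strict 2.02), and Hist1h4i (chr13:22040636-22041362, minus strand), an H4 gene, at 111 and 22.2 CPM (2.31, 1.94 to 2.71, strict 1.98). Hist1h4h was at 42.5 and 7.02 CPM (91 and 24 UMIs, 2.60, 1.94 to 3.31, strict 2.53). Histone genes of a cluster are near-identical copies, so how reads were split among them is uncertain.

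Other histone genes differed by less. Hist1h2ae (chr13:23570517-23571220, minus strand) was at 133 and 55.01 CPM (1.27, 0.998 to 1.54, strict 1.26), Hist1h2ap at 180 and 108 CPM (0.74, 0.53 to 0.95, strict 0.96) and Hist1h1b at 162 and 100.4 CPM (0.69, 0.48 to 0.91, strict 0.29, -0.05 to 0.63). Non-cycling astrocytes had the difference too. There Hist1h2bc was at 350 and 131 CPM (1.41), Hist1h1c at 72.9 and 35.7 CPM (1.03) and Hist1h4i at 54.996 and 13.6 CPM (2.02). It was likewise present in other dividing cells. Without the cells shared with the selected astrocytes, the sum stood at 0.98 (0.92 to 1.04) in cycling OPCs and at 1.42 (1.30 to 1.53) in cycling microglia, Hist1h2bc at 2.41 and 2.57 there, and 4 histone genes were 2-fold or more higher in all 3 types. The histone difference was not particular to the astrocytes.

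Cdkn1a (chr17:29090976-29100727, plus strand), which encodes the CDK inhibitor p21, was higher in the SMA cells although they were chosen for cycle RNA. It was at 144 CPM in SMA and 59.1 CPM in Con (309 and 202 UMIs, 1.29, 1.03 to 1.55), and at 173 and 80.2 CPM in strict cells (1.10, 0.80 to 1.41). In non-cycling astrocytes it was at 213 and 55.1 CPM (1.95). In the SMA library it was thus lower in the cycling than in the non-cycling cells, and in the Con library the levels were near each other. Cycling OPCs had 98.3 and 44.97 CPM (1.13, 0.85 to 1.41) and cycling microglia 428 and 254 CPM (0.75, 0.57 to 0.94).

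Other targets of p53, the factor that induces Cdkn1a, were read from a list of 18, without Cdkn1a itself. Of 9 measured, 8 were higher in the SMA cells and 5 above the median gene, with a sum of 0.32 (0.24 to 0.39), and in strict cells 5 of 8 were higher with a sum of 0.07 (-0.02 to 0.16). Phlda3, an inhibitor of Akt, was at 74.2 and 35.4 CPM (1.07, 0.72 to 1.42, strict 0.80), and Mdm2, the ligase that degrades p53, at 46.7 and 27.8 CPM (0.75, 0.33 to 1.17, strict 0.54). Of 5 CDK inhibitors measured, 4 were higher in SMA and 3 above the median gene, and 3 of 5 were higher in strict cells. The exception in both, Cdkn1c, the imprinted inhibitor p57, was lower at 50.9 and 81.3 CPM (-0.68, -1.01 to -0.35, strict -1.35).

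Metallothioneins, which bind zinc and copper, were higher in the SMA cells, at a sum of 5542 against 2957 CPM (0.91, strict 0.69). Mt1 was at 3471 and 1881 CPM (0.88) and Mt3 (chr8:94152607-94154146, plus strand), the brain form, at 1388 and 674 CPM (1.04, strict 0.67). Cycling OPCs and microglia had sums of 0.87 and 1.19, so this too was seen in other types. S100b, the calcium-binding protein of glia, was at 255 and 145 CPM (0.81, 0.63 to 0.99, strict 0.74), whereas in non-cycling astrocytes it was at 256 and 234 CPM (0.13). Cycling OPCs had it at 99.5 and 111 CPM (-0.15).

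Genes of cholesterol and fatty acid synthesis were lower in the SMA cells, and more so in the strict ones. Of 18 measured, 13 were lower and 1 was above the median gene (sum -0.12, -0.16 to -0.08). In strict cells 18 of 18 were lower, 14 of them with intervals below 0 (sum -0.36, -0.41 to -0.31, against a median gene of -0.05). Sqle, squalene epoxidase, was at 115 and 168 CPM (-0.54, -0.76 to -0.32, strict -0.89), and Nsdhl, which acts on late sterols, at 71.0 and 109 CPM (-0.62, -0.90 to -0.34, strict -0.86). Dhcr7, the enzyme of the final reduction, was at 51.8 and 76.7 CPM (-0.57, strict -0.76), and Hmgcs1, an early enzyme of the pathway, at 393 and 473 CPM (-0.27, strict -0.59). Markers of oligodendrocytes, which make cholesterol for myelin, were lower in SMA as well, at 310 and 656 CPM in all and 154 and 712 CPM in strict cells, with 315 of the strict Con UMIs in 1 cell. Their part in the cholesterol difference was not tested. Non-cycling astrocytes had a sum of -0.26, beside oligodendrocyte markers at 1032 and 1138 CPM. Cycling OPCs had 0.03 (-0.01 to 0.06) and cycling microglia 0.08 (-0.03 to 0.19).

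Astrocyte genes as groups were near the median gene. Transport and enzyme genes summed to 0.20 (14 of 21 higher, 9 above the median gene, strict 0.08 with 8 of 21 higher) and secreted proteins to 0.19 (11 of 15 higher, strict 7 of 14). Genes for SMN, its Gemin partners and the Sm proteins summed to 0.38, with 11 of 12 higher and 9 above the median gene, and to 0.16 with 7 of 10 higher in strict cells. Reln (chr5:21884454-22344702, minus strand), the secreted guidance protein reelin, was lower in SMA at 30.3 and 69.1 CPM (-1.19, -1.61 to -0.78, strict -1.31), against 71.6 and 88.9 CPM (-0.31) in non-cycling astrocytes. Cxcl10, an interferon-induced chemokine, was at 13.5 and 45.4 CPM (29 and 155 UMIs, -1.74, strict -3.66 on 8 and 140 UMIs).

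**Figure D5:**
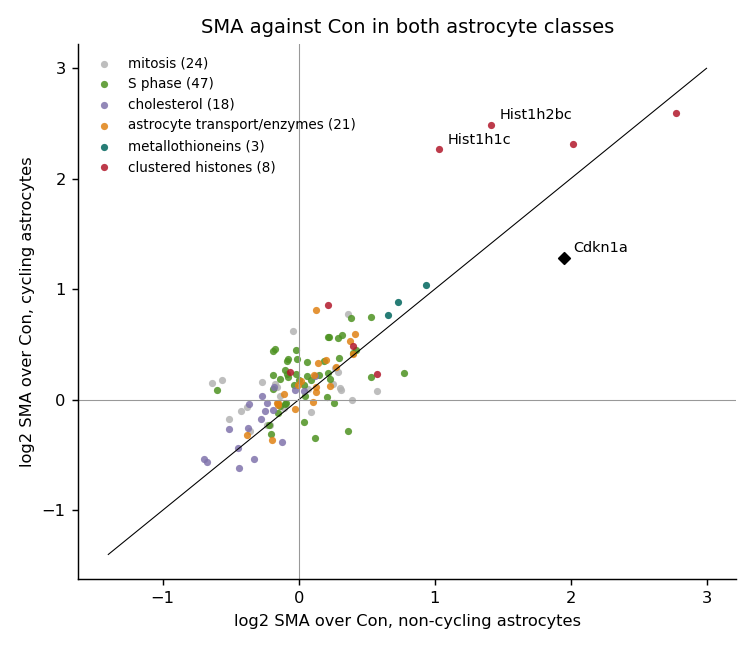
Log2 ratio of CPM, SMA over Con, in cycling astrocytes (vertical axis) against the same ratio in non-cycling astrocytes (horizontal axis), with 1 point for each gene of 6 lists with 100 or more UMIs in both classes and a diagonal at equal ratios. All 8 histone genes and all 3 metallothioneins drawn lie above 0 in cycling cells, 13 of 18 cholesterol genes lie below it, and Cdkn1a (diamond) lies below the diagonal at 1.29 in cycling and 1.95 in non-cycling cells.

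Outside the lists, the genes at the extremes between genotypes were mostly known from other cells. The highest were Ptgds (54.6 and 3.22 CPM, 4.08, strict 0.66), the prostaglandin D synthase of meninges and oligodendrocytes, followed by Fam183b (2.35, strict 0.61), Ecrg4 (2.18, strict 1.28), 1700007K13Rik (1.70, strict 0.95), 1110017D15Rik (1.67, strict 0.54), Calml4 (1.52, strict 0.68), 1700094D03Rik (1.44, strict 0.32) and Ctla2a (1.42, strict -0.71). Ependymal markers moved with several of these, at 141 and 38.9 CPM in all and 68.1 and 48.03 CPM in strict cells. The lowest included Mfap4 (1.40 and 83.1 CPM, 3 and 284 UMIs, -5.89, strict -5.27), a protein of elastic fibres, Serpinf1 (-3.38), Alas2 (-2.77), Cxcl12 (-2.73), Pcolce (-2.61), a partner of collagen processing, Cemip2 (-2.29) and Acta2 (-2.02), the smooth muscle actin. Alas2, the haem enzyme of red cells, moved with haemoglobin and had 0 and 2 UMIs in strict cells, and Acta2 turned to 3.64 there (27 and 3 UMIs). Fibroblast markers were at 172 and 440 CPM, and at 124 and 378 CPM in strict cells, beside Mfap4, Serpinf1, Cxcl12 and Pcolce. On the few SMA UMIs left in strict cells, Serpinf1 stood at -4.99 (-10.3 to -2.43, 1 and 44 UMIs), Cxcl12 at -4.95 (-8.02 to -3.06, 2 and 86 UMIs) and Pcolce at -4.34 (-7.42 to -2.42, 2 and 56 UMIs).

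Set beside the cycling OPCs and microglia that were not among them, the cycling astrocytes had less cycle RNA than the OPCs. Their S phase genes summed to 3977 and 3305 CPM against 5341 and 5552 CPM in 485 SMA and 472 Con OPCs, and their mitosis genes to 5206 and 4963 against 7989 and 6400.1 CPM. Cycling microglia (232 and 156 cells) had 3034 and 3044 CPM and 4929 and 4421 CPM. The 189 SMA and 283 Con selected astrocytes that met neither the OPC nor the microglial rule had 3378 and 2741 CPM of S phase and 4610.0 and 4349 CPM of mitosis genes. The SMA over Con ratio of the S phase genes was 0.27 in astrocytes, -0.06 in OPCs and -0.0049 in microglia, and that of the mitosis genes 0.07 (0.03 to 0.10), 0.32 (0.29 to 0.35) and 0.16 (0.11 to 0.20). The median gene stood at 0.14, 0.05 and 0.13 in these types, so that in astrocytes the S phase sum lay above the median gene and the mitosis sum below it, and in OPCs the reverse was seen. In microglia the interval of the mitosis sum held the median gene, as it did in strict astrocytes. In the astrocytes that met neither other rule, with a median gene of 0.19, the S phase genes stood at 0.30, mitosis genes at 0.08, the histone genes at 1.78 (1.69 to 1.87), Cdkn1a at 1.63 (1.33 to 1.94), metallothioneins at 0.92 and cholesterol genes at -0.08 (-0.13 to -0.03). With 1 library per genotype this order could not be tested.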

How the data were processed

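Single-cell RNA-seq had been made from whole spinal cords with 10x Genomics 3′ version 3 chemistry. The authors deposited raw UMI counts per gene and barcode, made with Cell Ranger 4.0.0 per the file headers on mm10, with Seurat 3.2.2 also listed in the submitters' processing notes. Cells were selected by the limits given in the report, and doublets were treated only by the limit of 4000 genes and the excluded genes, with no doublet caller. In each library the UMIs of a cell class were added up per gene and scaled to CPM. Counts of genes and calls of 2-fold or more used genes with 100 or more UMIs over both groups, and a ratio of all selected cells below that limit is marked where printed. Strict ratios are given with no such limit. Intervals were exact (Clopper-Pearson for shares, conditional binomial for ratios of UMIs) or, between shares, set on the log scale. All are at 95% and were computed with Python 3.11.15. The intervals of UMI ratios were tested on counts simulated from the Poisson model that they assume. UMIs clumped in single cells were not simulated, so the coverage of the intervals in these data was not tested. The gene lists, the members and the rule for named genes (the 8 highest and 8 lowest outside the lists) were chosen with earlier results of these data known. Some genes that met this rule or stand in the lists are not reported here. Positions came from GENCODE M21 on GRCm38, which matched 721 of 722 listed and named genes.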

Additional observations from a re-analysis of the deposited data

Results flagged for a closer look

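In the 528 genes of the lists that were looked at, 5 had ratios of cycling over non-cycling cells in opposite directions in the libraries, relative to the median gene, with intervals on opposite sides. Cldn5 of endothelial cells, an exclusion gene of the choice whose levels are therefore partly set by it, had 149 SMA UMIs in 11 of 274 cells, 48 of them in 1 cell. It stood at 0.87 in SMA and -0.40 in Con, and at -2.13 and 0.52 in strict cells. Flt1, an endothelial receptor, stood at 0.71 and -1.49 (strict -1.76 and -0.42), and Rgs5 of pericytes at 0.88 and -0.64 (strict 1.06 and 1.12). Srgn stood at 0.52 and -0.69 (strict 0.30 and -0.03), and Pmp22 of Schwann cells at 0.21 and -0.69 (strict 0.12 and 0.31). The difference between the libraries was not tested, since each was 1 sample.

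Cells that met the marker and cycle rules were also found outside the filters. The SMA barcodes that are also listed in Con held 119 such cells. More than 4000 genes were found in 36 SMA and 90 Con cells, and a mitochondrial share of 10% to 20% in 119 SMA and 179 Con cells. None of these cells entered the main comparisons. They were used only where the filter concerned was lifted as an alternative setting.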

How the results depend on the processing

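No paired analysis was possible because each group was 1 library and the labels give no replicate numbers. The settings based on 5 or more markers, on haemoglobin under 2% or on both, and the removal of shared cells from the other classes, were chosen after seeing the data. Of 197 recomputed group results, 162 stayed within 1.5 times the count or within the interval of the reported value and 35 did not. Within that interval, the share ratio was 0.0044 with cells thinned to 2000 UMIs and -0.23 (-0.41 to -0.04) with no upper limit on genes. The mitosis sum, SMA over Con, went from 0.07 to -0.08 in strict cells. With shared SMA barcodes kept, the share ratio was -0.48 and the SMA share of S phase cells 33.3%. The Con share of S phase cells was 31.0% with 5 or more cycle UMIs and 30.9% with no exclusion gene. With no exclusion gene, 21 mitosis genes were 2-fold higher in both libraries, and in strict cells 25, where fewer genes had 100 UMIs. Progenitor genes lower in both numbered 10 in strict cells. Genes higher in SMA among S phase, mitosis and transport genes numbered 22, 14 and 8 with haemoglobin under 2%. Mitosis and transport genes higher numbered 20 and 8 in strict cells, 22 and 9 after centring on the median gene, and 16 and 8 without haemoglobin, mitochondrial and ribosomal-protein genes. Genes 2-fold higher in SMA numbered 22 with 5 or more markers, 25 with haemoglobin under 2%, 13 in strict cells and 25 after centring. With 50 or more UMIs there were 114 higher and 79 lower, and with 300 or more 13 and 21. In cycling over non-cycling cells, 137 SMA genes were lower in strict cells, and lower Con genes numbered 121 with 5 or more markers, 150 with haemoglobin under 2% and 81 in strict cells. With 50 or more UMIs, 504 were higher and 430 lower in SMA and 501 lower in Con. With 300 or more, 129 and 59 were so in SMA and 137 and 78 in Con. Of 1528 recomputed single gene values, 1198 stayed within the interval of the reported value, 317 left it and 13 reversed in direction. Ctla2a reversed to -1.24 with no upper limit on genes, -0.0796 with 4 or more markers, -0.56 with 5 or more and -0.71 in strict cells. Acta2 reversed to 3.13, 3.85 and 3.64 in the last 3 of these settings, S100a9 in SMA to 0.31, 0.47 and 0.52, and S100a8 to 2.31, 2.47 and 2.52, both on 1 cycling SMA UMI in strict cells. The cause was not tested for any of these. Depth limits genes near 100 UMIs, and with 1 library per genotype no value carries a spread between animals.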
